A study of Homo sapiens with 36 samples.

Results

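MYC and a set of factors that build ribosomes, 45 genes in all, were followed in 2 prostate cancer lines. The genes were chosen by symbol, and each was read from its Illumina HT-12 probe with the highest mean level. A probe was found for 41 of the 45 genes, out of 20046 genes with a named probe, and WDR43, GNL3, DDX18 and EBNA1BP2 were not analysed here.

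MYC is a transcription factor whose targets include much of the machinery that makes ribosomes, and it is often raised in prostate cancer. Ribosomes are assembled in the nucleolus: RNA polymerase I copies the ribosomal DNA, small nucleolar ribonucleoproteins (snoRNPs) guide the chemical modification of the transcript, and separate sets of factors cleave it and fold it into the small (40S) and large (60S) subunits. Output of this pathway sets how much protein a growing cell can make.

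The lines were LNCaP, an androgen-dependent prostate cancer line, and c42b, a castration-resistant line derived from it. Cells of both carried, per the labels, a short hairpin against GABPA (shGA), a non-targeting hairpin (NT), a pLVX vector for GABPA (pLVX_GABPa) or the empty pLVX vector (EV). GABPA encodes GABPα, the DNA-binding subunit of an ETS-family transcription factor. Both lines were first held in charcoal-stripped serum, which holds little steroid, for 48 h. R1881, a synthetic androgen, was then added at 1 nM, or ethanol in its place as vehicle. The 32 samples formed 16 groups of 2, and 4 of them had a repeat array that was averaged with its sample, which made 36 arrays. The design text calls the replicates biological, but nothing names separate cultures, so the p-values speak of the spread among the samples at hand, and this spread may be technical. Repeat arrays of 1 sample differed by an SD of 0.15 to 0.162 on the log2 scale, and the other replicate of the same group by 0.151 to 0.165. The study's methods assign a pLVX vector to the knockdown and another backbone to the overexpression, the reverse of the labels. Groups follow the labels here, and the disagreement touches every comparison of vectors or GABPA constructs.

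Levels are log2 of the quantile-normalized array intensity, differences are on the same log2 scale, and levels of different genes were not set against each other because probes differ in brightness. A gene was called in a comparison when its adjusted p from limma, with Benjamini-Hochberg adjustment over all 47231 probes, was under 0.05. Background was set at 7.80, the 95th percentile of probes for olfactory receptors. Of the 41 measured members, 35 had a mean level above it. The other 6 were NPM1 (7.50), POLR1A (7.45), POLR1B (7.74), MYBBP1A (7.24), WDR3 (7.01) and UTP20 (7.64), and nothing can be said of their regulation beyond the values given. Epithelial markers were at 9.33 to 12.37 for the 7 of 8 that had a probe. Of the 7 measured markers of other cell types, 2 had a mean above background (VWF at 7.98 and COL1A1 at 7.995). Over the samples, VWF ranged from 6.975 to 10.015 and COL1A1 from 7.623 to 8.496. GABPA, the targeted gene, was lower with the hairpin by a difference of −0.46 in c42b (adjusted p = 0.0215, limma) and of −0.38 in LNCaP (adjusted p = 0.101, limma), and it was not higher in the cells labelled pLVX_GABPa (differences of −0.05 and 0.03). The GABPA probe had a mean level of 7.95, close to background, which limits what it can show. The paper reports overexpression as doxycycline-inducible and as checked by western blot and PCR. The cells labelled pLVX_GABPa are therefore called labelled overexpression throughout.

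More members were called between the vector types of control cells (17 and 24) than with R1881 or a GABPA construct (0 to 2). All genes followed the same order. In a given direction, 5.76% to 9.58% of them were called between vectors and 0.00998% to 1.72% with R1881 or a construct. The p-values were adjusted jointly over 2 comparisons for the vectors and over 6 for the others. Cells with empty pLVX had lower levels of ribosome factors than those with the non-targeting hairpin, in both lines. In LNCaP, 17 of the 41 members were called lower and 0 higher, where 5.76% of all genes were called lower and 6.17% higher. In c42b, 24 were called lower and 0 higher, where 8.43% of all genes were called lower and 9.58% higher. The members had a median difference of −0.23 in LNCaP and −0.29 in c42b, against medians of 0.005 and 0.012 over all genes. Of the genes above background, 11% were called lower in LNCaP and 15.3% in c42b. Per the labels, EV was the control of the labelled-overexpression cells and NT that of the knockdown cells. The vector, its selection and the culture of the cells cannot be told apart in this comparison.

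**Figure D1:**
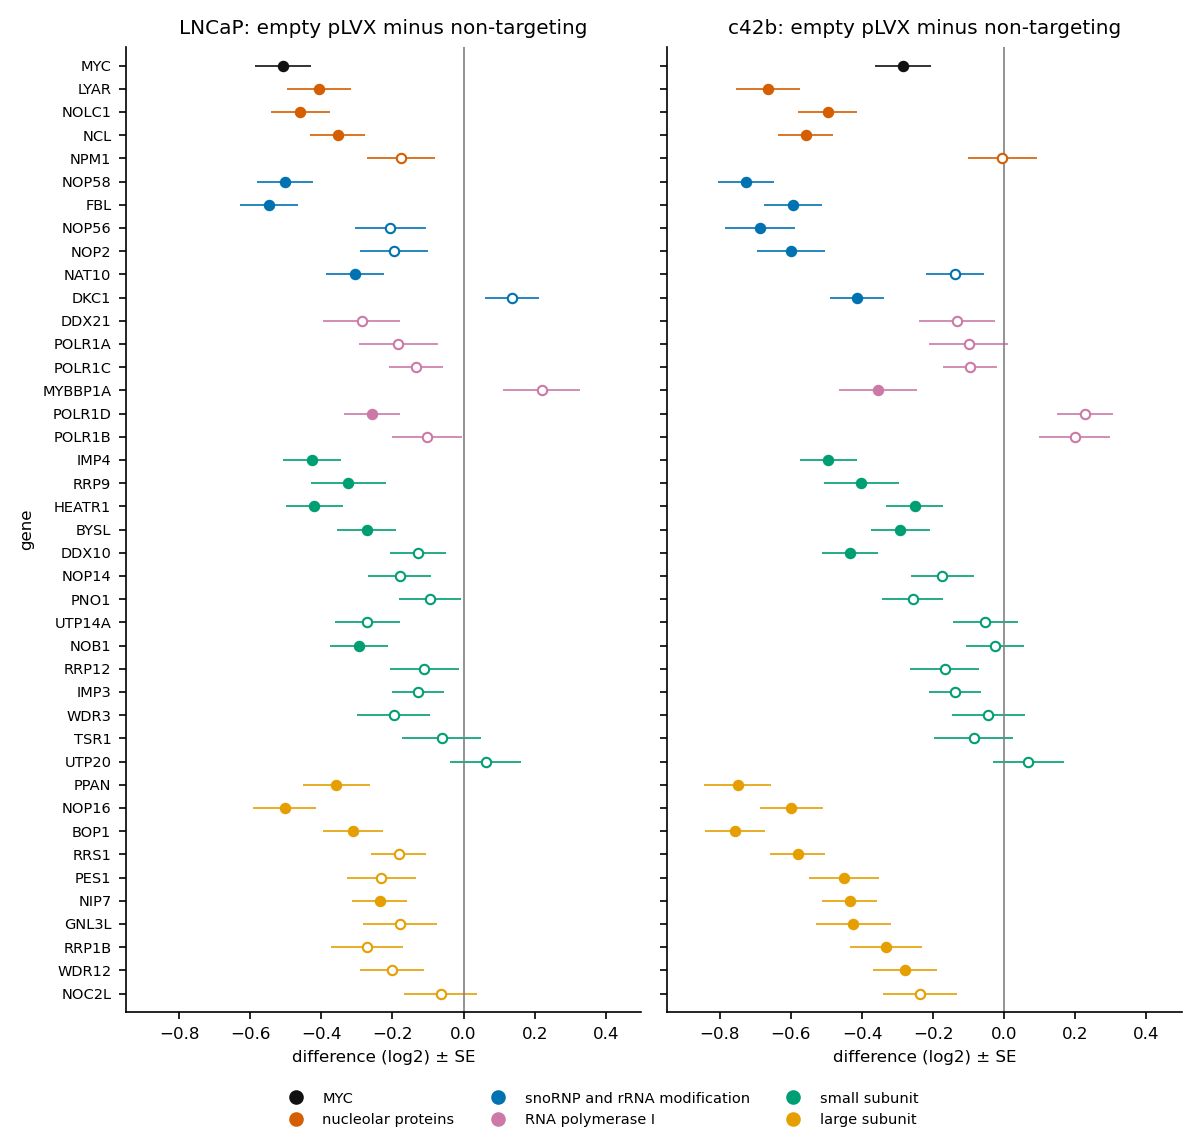
Difference between empty-pLVX and non-targeting control cells (log2, x axis) for each of the 41 measured members (y axis), in LNCaP on the left and c42b on the right. Points are the mean differences over 4 samples a side, bars 1 SE, colours the role of the gene, and filled points passed adjusted p < 0.05. All filled points lie below 0, 17 in LNCaP and 24 in c42b, and NOP58, FBL and NOP16 lie at −0.50 or below in both lines.

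FBL and NOP58, core proteins of the box C/D snoRNP, the particle that guides methylation of ribosomal RNA, were lower in both lines. FBL (fibrillarin), its methyltransferase, was at 11.84, 11.57, 11.78 and 11.72 in the 4 LNCaP NT samples and at 11.15, 11.18, 11.22 and 11.17 in the 4 EV samples, with the R1881 samples first. In c42b, FBL was at 12.09, 11.94, 11.95 and 12.04 with NT and at 11.44, 11.45, 11.34 and 11.42 with EV. No EV sample reached any NT sample of its line. The difference in FBL was −0.55 (SE 0.08, adjusted p = 1.09e-05, limma) in LNCaP and −0.59 (SE 0.08, adjusted p = 2.86e-06, limma) in c42b.

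NOP58, a scaffold protein of the same particle, was at 10.88, 10.90, 11.12 and 11.04 in LNCaP NT cells and at 10.67, 10.59, 10.45 and 10.21 in EV cells. In c42b its levels were 11.10, 11.22, 11.55 and 11.36 with NT and 10.51, 10.49, 10.65 and 10.67 with EV. The groups did not overlap in either line, and the differences were −0.50 (adjusted p = 2.27e-05) and −0.73 (adjusted p = 3.73e-08). NOP56, the second scaffold protein, was called in c42b, at −0.69 (adjusted p = 5.28e-06), and stood at −0.21 (adjusted p = 0.244) in LNCaP. A call in 1 line does not show that the lines differed, and the test of that difference, given further on, called DKC1 and POLR1D. NOP2, an rRNA methyltransferase, was called lower in c42b at −0.60, and NAT10, an rRNA acetyltransferase, in LNCaP at −0.31. In all, 3 of the 6 snoRNP and modification genes were called lower in LNCaP and 5 of 6 in c42b.

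Of 10 large-subunit factors, 4 were called lower in LNCaP and 9 in c42b. BOP1, a member of the PeBoW complex that processes the large-subunit rRNA, was at 11.33, 11.27, 11.16 and 11.39 in c42b NT cells and at 10.33, 10.68, 10.52 and 10.60 in EV cells. Every EV sample was below every NT sample, and the difference of −0.76 (SE 0.08, adjusted p = 5.41e-08) amounted to −40.8% on the linear scale. In LNCaP, BOP1 was at 10.98, 10.81, 11.06 and 10.91 with NT and 10.62, 10.59, 10.60 and 10.70 with EV (difference −0.31, adjusted p = 0.0126). Its partners PES1 (−0.45) and WDR12 (−0.28) were called in c42b. PPAN, whose yeast counterpart works in large-subunit assembly, differed by −0.75 in c42b and −0.36 in LNCaP. A read-through transcript joins PPAN to its neighbour P2RY11, and the probe was not checked for telling them apart. NOP16, a nucleolar protein of the same branch in yeast, differed by −0.60 in c42b and −0.50 in LNCaP. RRS1 (−0.58), NIP7 (−0.44), GNL3L (−0.43) and RRP1B (−0.33) made up the rest in c42b, and NIP7 (−0.24) was also called in LNCaP. The NIP7 difference in LNCaP lay in the vehicle arm, at 10.38 and 10.40 with NT and 9.95 and 9.87 with EV. With R1881, NIP7 was at 10.33 and 10.20 with NT and at 10.29 and 10.25 with EV. A second, dimmer probe of GNL3L was at −0.13 (adjusted p = 0.541).

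**Figure D2:**
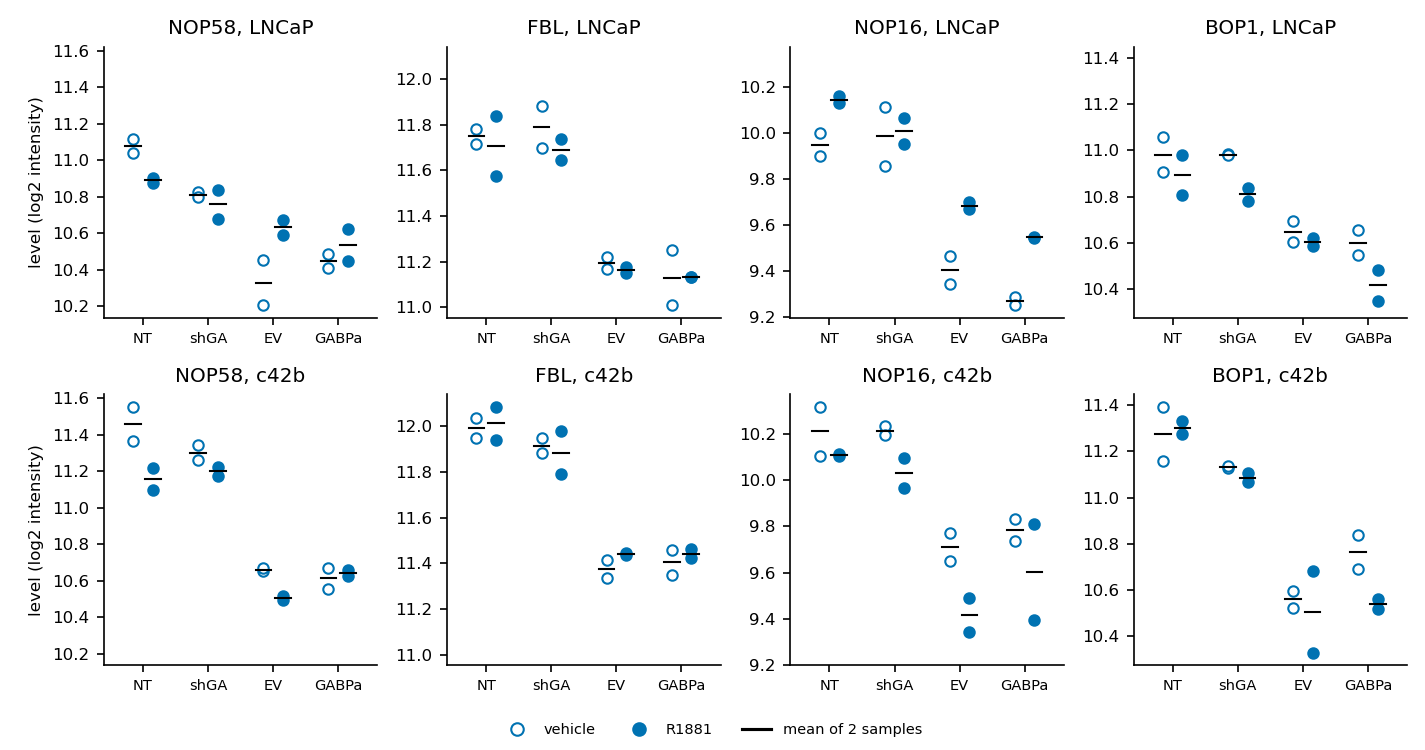
Levels (log2 intensity, y axis) of NOP58, FBL, NOP16 and BOP1 in LNCaP (top) and c42b (bottom) cells with the non-targeting hairpin (NT), the GABPA hairpin (shGA), empty pLVX (EV) or the labelled overexpression vector (GABPa). Each circle is 1 sample, filled with R1881 and open with vehicle, and bars are means of 2 samples. The genes were picked from the 7 members whose pLVX samples all lay below all hairpin samples in both lines. This held for 1.96% of all genes. Among the 7 they had the largest EV-minus-NT differences summed over the lines. The separation in each panel follows from this choice. In FBL in LNCaP, pLVX cells reached 11.25 and hairpin cells went no lower than 11.57.

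Small-subunit factors were called lower in 5 of 14 cases in each line. IMP4, a protein of the U3 snoRNP that starts small-subunit processing, differed by −0.43 (adjusted p = 0.000344) in LNCaP and −0.50 (adjusted p = 4.43e-05) in c42b. HEATR1, a large scaffold of the processome, differed by −0.42 (adjusted p = 0.000309) and −0.25 (adjusted p = 0.0399), and the c42b call was lost when any 1 of its 8 samples was left out (adjusted p up to 0.134). RRP9, another U3 protein, and BYSL, which matures the 40S subunit, were called in both lines (RRP9 −0.32 and −0.40; BYSL −0.27 and −0.29). NOB1, the nuclease that makes the end of the 18S rRNA, was called in LNCaP (−0.30), and the helicase DDX10 in c42b (−0.43).

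The abundant nucleolar proteins NCL (nucleolin), NOLC1, a chaperone of snoRNPs, and LYAR, a nucleolar zinc-finger protein, were called lower in both lines. NCL differed by −0.35 and −0.56, NOLC1 by −0.46 and −0.50, and LYAR by −0.41 and −0.67, in LNCaP and c42b. The LYAR difference in LNCaP lay mostly in the vehicle arm, with means of 10.205 (NT) and 9.46 (EV). With R1881 the means were 9.789 and 9.721. Of the 6 genes of RNA polymerase I and its regulators, 1 was called in each line. POLR1D, a small subunit shared with RNA polymerase III, was lower in LNCaP (−0.26, adjusted p = 0.0315), where its second probe gave 0.06. MYBBP1A, a regulator of the polymerase whose level was below background, was lower in c42b (−0.36, adjusted p = 0.0323).

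MYC itself was at 11.68, 11.54, 12.03 and 11.89 in LNCaP NT cells, R1881 samples first, and at 11.22, 11.24, 11.41 and 11.23 in EV cells, a difference of −0.51 (SE 0.08, adjusted p = 1.96e-05). In c42b it was at 11.27, 11.18, 11.77 and 11.72 with NT and at 10.67, 10.90, 11.62 and 11.61 with EV, a difference of −0.29 (adjusted p = 0.0153). The groups overlapped in c42b, where the R1881 and vehicle samples stood apart within each vector. The second MYC probe gave −0.11 (adjusted p = 0.683) in LNCaP and −0.44 (adjusted p = 0.00928) in c42b. The c42b call was lost without any 1 of 3 samples (NT R1881 replicate 1, NT vehicle replicate 1, EV R1881 replicate 1).

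The members called lower in both lines were MYC, NCL, NOLC1, LYAR, NOP58, FBL, RRP9, HEATR1, IMP4, BYSL, BOP1, NOP16, NIP7 and PPAN, 14 genes that made up 82.4% of the LNCaP calls and 58.3% of the c42b calls. Over all genes, 3.26% were lower in both lines, and 6.36% of genes above background. Some of the calls did not hold with 1 sample fewer. For HEATR1 and WDR12 in c42b this was so whichever of the 8 samples was left out. The calls of NAT10, POLR1D, RRP9, BYSL, NOB1, BOP1, NIP7 and PPAN in LNCaP, and of MYC, MYBBP1A, HEATR1, BYSL, WDR12, RRP1B and GNL3L in c42b, were each lost when 1 of the 8 samples was left out, with the difference still below 0.

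Upstream sequences of some of these 14 genes are shown, whole or in part, to let the promoters be read beside the values. GABPα binds the ETS motif CCGGAAG and MYC the E-box CACGTG. The promoters of IMP4, BYSL and PPAN were counted but are not printed. Sequences are from RefSeq (GRCh38.p14), cover the 250 bases before the annotated start, run 5′ to 3′ on the strand of the gene, and have motif matches on either strand in capitals. A promoter was found for 10 of the 14, and the 4 whose window held no annotated gene are printed whole. These are HEATR1 (chr1:236604517-236604766, minus strand), NCL (chr2:231464485-231464734, minus strand), RRP9 (chr3:51941905-51942154, minus strand) and FBL (chr19:39846380-39846629, minus strand).
HEATR1: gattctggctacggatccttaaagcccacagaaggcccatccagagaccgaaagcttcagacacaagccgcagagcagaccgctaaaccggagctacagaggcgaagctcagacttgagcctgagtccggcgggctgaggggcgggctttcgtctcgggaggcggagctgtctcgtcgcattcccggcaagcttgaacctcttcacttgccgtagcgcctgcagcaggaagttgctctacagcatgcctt
NCL: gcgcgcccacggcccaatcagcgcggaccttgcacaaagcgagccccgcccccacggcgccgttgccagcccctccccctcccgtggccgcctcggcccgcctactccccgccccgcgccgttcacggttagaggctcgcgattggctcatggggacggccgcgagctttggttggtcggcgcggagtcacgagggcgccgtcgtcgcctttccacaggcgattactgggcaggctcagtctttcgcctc
RRP9: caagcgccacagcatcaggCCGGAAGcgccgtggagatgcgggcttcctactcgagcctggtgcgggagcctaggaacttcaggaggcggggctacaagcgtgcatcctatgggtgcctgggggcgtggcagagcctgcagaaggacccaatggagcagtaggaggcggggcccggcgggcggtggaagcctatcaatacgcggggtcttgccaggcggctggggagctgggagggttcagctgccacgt
FBL: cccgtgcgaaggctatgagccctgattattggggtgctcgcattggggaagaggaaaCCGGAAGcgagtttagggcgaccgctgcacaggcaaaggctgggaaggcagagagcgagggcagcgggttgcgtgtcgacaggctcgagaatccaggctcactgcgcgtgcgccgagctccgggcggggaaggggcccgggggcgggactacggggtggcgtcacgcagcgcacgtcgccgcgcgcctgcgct
RRP9 had the ETS motif beginning 231 bases before the start and FBL 193 bases before it, and HEATR1 and NCL held neither motif in this window. The 30 bases around a match are shown for LYAR (chr4:4290068-4290097, minus strand), NOP16 (chr5:176388599-176388628, minus strand) and NIP7 (chr16:69339565-69339594, plus strand), as examples of the E-box, of overlapping ETS matches on opposite strands, and of a single ETS match read on the opposite strand.
LYAR: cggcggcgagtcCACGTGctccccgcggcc
NOP16: cttgtgcacgcCTTCCGGAAGgagtttgtt
NIP7: aacgtcacttccCTTCCGGaccacaagggg
The ETS motif was present in 5 of these 10 promoters (RRP9, NOP16, NIP7, PPAN and FBL), in 11 of the 37 promoters found for the 45 members (29.7%) and in 8.52% of 35116 promoters of the same length. Among 13 members called lower in neither line it was present in 38.5%. The E-box was present in 1 of the 10, in 13.5% of the members' promoters and in 6.34% of all. A match describes these letters only.

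The same contrast of vectors could be read in samples that the control comparison did not use, labelled-overexpression cells against GABPA-hairpin cells, in a comparison chosen after the data were seen. These cells differ in their GABPA construct as well. In LNCaP, 11 members were called lower and 0 higher, where 6.2% of all genes were called lower and 6.8% higher, and 9 of the 17 control calls were among them. In c42b, 17 were called lower and 1, POLR1D (0.28), higher, where 8.7% and 8.6% of all genes were called lower and higher, and 17 of the 24 control calls were among the lower ones. MYC was not among them, with differences of −0.05 (adjusted p = 0.849) in LNCaP and 0.07 (adjusted p = 0.767) in c42b. In LNCaP, RRP9 (0.04), POLR1D (0.02), NIP7 (−0.02) and PPAN (−0.05) were also near 0 and not called, and NCL, LYAR and NOB1 were not called either (−0.14 to −0.17).

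With all vectors counted, the 8 pLVX samples were all below the 8 hairpin samples for 8 members in LNCaP, where this held for 3.09% of all genes, and for 14 members in c42b, where it held for 5.4%. For NOLC1, NOP58, FBL, HEATR1, IMP4, BOP1 and NOP16 it held in both lines, as it did for 1.96% of all genes. FBL, for example, ranged from 11.01 to 11.25 in pLVX cells and from 11.57 to 11.88 in hairpin cells of LNCaP, and from 11.34 to 11.46 and 11.79 to 12.09 in c42b.

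Genes of mitosis moved with the same contrast. Of 20 such genes, 18 were called lower with EV in LNCaP (median −1.12) and 19 in c42b (median −2.39), with CDC20, an activator of the anaphase-promoting complex, at −2.47 and −3.93. Fewer dividing cells and less RNA per cell cannot be told apart in bulk samples, and the part of proliferation in the members' differences was not tested. Of 98 ribosome factors outside the members, 19 were called lower and 4 higher in LNCaP (median −0.11), and 30 lower and 1 higher in c42b (median −0.18). In LNCaP these included RUVBL1 (−0.47), an ATPase of snoRNP assembly, UTP11 (−0.44), a small-subunit factor, and SBDS (0.52), which frees the large subunit for use. In c42b they included RRP7A (−0.86) and NOL6 (−0.60) of the small subunit, and NOP53 (0.72) of the large. Of 20 other MYC targets, 10 were lower and 1 higher in LNCaP, with lactate dehydrogenase LDHA (−0.61) and the cyclin-dependent kinase CDK4 (−0.51) the lowest. In c42b, 9 were lower and 2 higher, with the phosphatase CDC25A (−1.50), LDHA (−1.01) and the nucleoside diphosphate kinase NME1 (−0.71) the lowest. Within the network of MYC partners and antagonists (15 genes), 2 were lower and 2 higher in LNCaP, and in c42b the antagonists MXD3 (−1.46) and MXD4 (0.54) moved in opposite directions.

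The second contrast asked how the castration-resistant line differed from its parent in the same control cells, 8 samples a side. In c42b, 16 members were called higher and 2 lower, where 14.9% of all genes were called higher and 13.7% lower. Among genes above background these shares were 26.3% and 25.4%. The members' median difference was 0.11 and that of all genes 0.00. By control vector, the members' median was 0.177 in NT cells alone and 0.061 in EV cells alone. By role, the calls above 0 were 4 of 6 RNA polymerase I genes, 3 of 4 abundant nucleolar proteins, 4 of 6 snoRNP and modification genes, 3 of 14 small-subunit factors and 2 of 10 large-subunit factors.

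**Figure D3:**
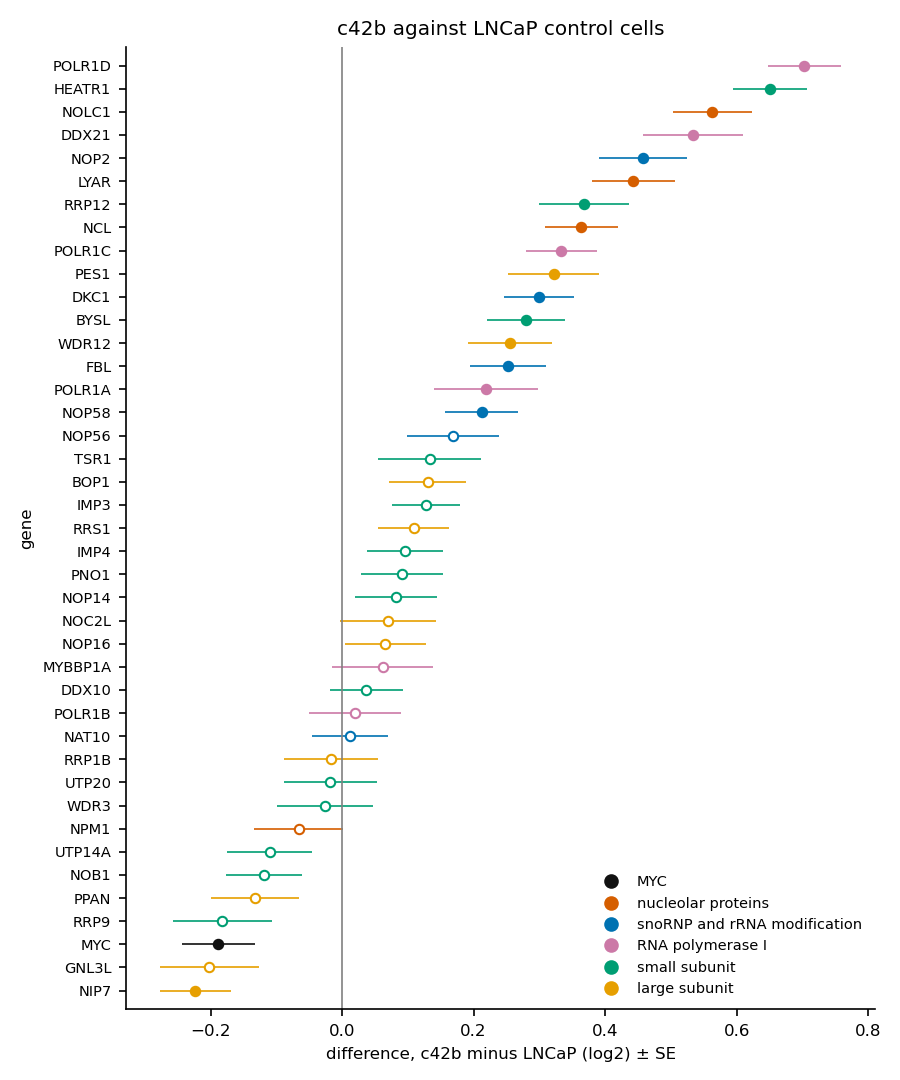
Difference between c42b and LNCaP control cells (log2, x axis) for the 41 measured members (y axis), ordered by size. Points are the differences over 8 samples a side, bars 1 SE, colours the role of the gene, and filled points passed adjusted p < 0.05. POLR1D (0.70), HEATR1 (0.65) and NOLC1 (0.56) lie farthest to the right, and NIP7 (−0.22) and MYC (−0.19) are the filled points below 0.

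POLR1D ranged from 12.81 to 13.51 in LNCaP controls (median 13.22) and from 13.70 to 14.04 in c42b controls (median 13.91), with no overlap. The difference was 0.70 (SE 0.06, adjusted p = 1.17e-11), and the second probe gave 0.53. HEATR1 ranged from 8.30 to 8.90 (median 8.59) in LNCaP and from 9.03 to 9.48 (median 9.23) in c42b, again with no overlap, a difference of 0.65 (SE 0.06, adjusted p = 7.66e-11). DDX21, a helicase that works with RNA polymerase I and snoRNAs, ranged from 10.19 to 10.63 and from 10.65 to 11.30, a difference of 0.53 (adjusted p = 1.58e-06). POLR1C, which pairs with POLR1D, ranged from 10.22 to 10.54 and from 10.59 to 10.85, a difference of 0.33 (adjusted p = 1.23e-05). The lines overlapped for the other called members. The share of all genes without overlap between the lines was not counted, so these ranges describe the named genes only.

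NOLC1 (0.56), NOP2 (0.46), LYAR (0.44), RRP12, an export factor of the small subunit (0.37), and NCL (0.36) followed. PES1, DKC1, BYSL, WDR12, FBL and NOP58 were called at 0.21 to 0.32. DKC1 is the pseudouridine synthase of the box H/ACA snoRNP. POLR1A, the largest subunit of the polymerase, was called at 0.22 (adjusted p = 0.0478) below background, and the call was lost when any 1 of 14 of the 16 samples was left out. NIP7 (−0.22, adjusted p = 0.0021) and MYC (−0.19, adjusted p = 0.0136) were lower in c42b. The MYC value joins unlike arms. With R1881, mean MYC was 11.225 (NT) and 10.785 (EV) in c42b and 11.612 and 11.234 in LNCaP. With vehicle it was 11.744 (NT) and 11.613 (EV) in c42b and 11.955 and 11.318 in LNCaP. Vehicle EV cells were thus higher in c42b. The MYC call was lost without c42b EV R1881 replicate 1, and the second probe gave −0.14 (adjusted p = 0.292).

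In the cells with GABPA constructs, not used above and compared after the data were seen, 21 members were called higher in c42b and 1 lower, where 14.3% of all genes were called higher and 13.2% lower. They held 15 of the 18 members called in the controls. POLR1D (0.83) and HEATR1 (0.70) were again far higher, NIP7 was lower (−0.32), and MYC was at 0.04 (adjusted p = 0.787). Mitosis genes were also higher in c42b, with 16 of 20 called and a median of 0.56, and their part in the members' differences was not tested. Of the 98 other ribosome factors, 32 were higher and 12 lower in c42b, among them RSL24D1 (0.74) of the large subunit, UTP6 (0.70) and KRR1 (−0.85) of the small subunit. Of 20 other MYC targets 6 were higher and 2 lower, led by the transferrin receptor TFRC (0.90), and among MYC partners MXD4 was lower (−0.74) and MXD3 higher (0.69).

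DKC1 and the brightest probe of POLR1D showed vector differences that depended on the line. DKC1 was at 11.76, 11.75, 11.96 and 11.84 in c42b NT cells and at 11.27, 11.48, 11.48 and 11.44 in EV cells (−0.41, adjusted p = 0.000186), whereas in LNCaP the difference was 0.14 (adjusted p = 0.341). The LNCaP value joins arms that went opposite ways, at −0.07 with R1881 and 0.34 with vehicle, and in c42b the arms were at −0.39 and −0.44. The test of the difference between lines gave −0.55 (adjusted p = 0.00507), where 5.17% of all genes were called in either direction. For POLR1D the same test gave 0.49 (adjusted p = 0.0306), from −0.26 in LNCaP and 0.23 in c42b. Its second probe did not change sign between the lines, at 0.055 in LNCaP and 0.182 in c42b, with neither called. By vector, DKC1 was higher in c42b than in LNCaP by 0.58 with NT and by 0.02 with EV, and POLR1D by 0.46 and 0.95.

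The next comparison asked what 1 nM R1881 did in control cells. In c42b, MYC was lower with androgen. In NT cells MYC was at 11.27 and 11.18 with R1881 and at 11.77 and 11.72 with vehicle, and in EV cells at 10.67 and 10.90 against 11.62 and 11.61. Every R1881 sample was below every vehicle sample. The difference was −0.67 (SE 0.08, adjusted p = 1.46e-06), or −37.3% on the linear scale, and MYC was the single member called in c42b, where 0.609% of all genes were called lower and 0.943% higher. The second probe gave −0.46 (adjusted p = 0.0412).

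**Figure D4:**
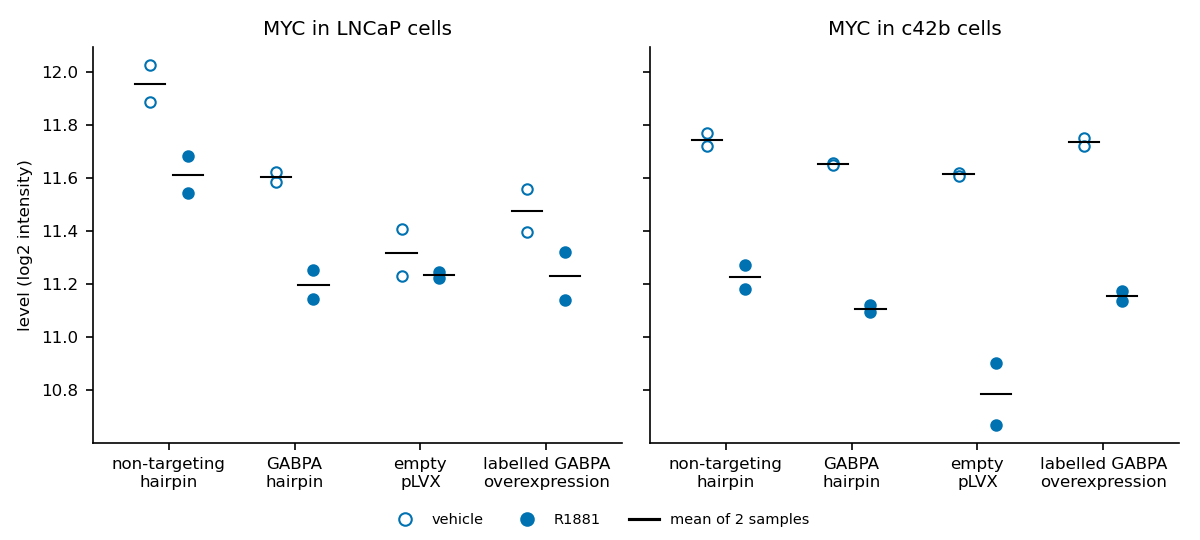
MYC level (log2 intensity, y axis) in LNCaP (left) and c42b (right) cells by vector, with R1881 (filled circles) or vehicle (open circles). Each circle is 1 sample and bars are means of 2 samples. In c42b the 8 R1881 samples, at 10.67 to 11.27, lie below the 8 vehicle samples, at 11.61 to 11.77, and in LNCaP the non-targeting cells lie highest in each arm.

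The same held in the c42b cells with GABPA constructs, which that test did not use. Their R1881 samples were at 11.12 and 11.09 (shGA) and at 11.14 and 11.17 (pLVX_GABPa), against 11.65, 11.65, 11.75 and 11.72 with vehicle. This difference was −0.56 (adjusted p = 3.15e-05, limma), where 0.444% of all genes were called lower and 0.988% higher. NOP56 (−0.38) and RRS1 (−0.33) were also called there.

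In LNCaP, MYC differed by −0.21 with R1881 (adjusted p = 0.321) in the control cells, from −0.34 in NT cells and −0.08 in EV cells, and by −0.33 (adjusted p = 0.0299) in the cells with GABPA constructs, where 1.3% of all genes were called lower and 2.12% higher. All 8 R1881 samples ranged from 11.14 to 11.68 and the 8 vehicle samples from 11.23 to 12.03, with overlap. The test of whether the response differed between the lines gave −0.46 (SE 0.11, adjusted p = 0.0495), where 0.444% of all genes were called in either direction, and it was lost without any 1 of 14 of the 16 samples.

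In LNCaP the members called with R1881 were DKC1 and POLR1D, both lower, where 1.32% of all genes were called lower and 1.65% higher. DKC1 was at 11.17, 11.12, 11.07 and 11.09 with R1881 and at 11.39, 11.34, 11.62 and 11.79 with vehicle in NT and EV cells, with no overlap. The difference was −0.42 (SE 0.08, adjusted p = 0.00109), and in the cells with GABPA constructs −0.38 (adjusted p = 0.00347). Both values join vectors with unlike gaps. Means with R1881 and vehicle were 11.146 and 11.365 (NT), 11.127 and 11.337 (shGA), 11.079 and 11.706 (EV), and 11.069 and 11.628 (pLVX_GABPa). Whether the response differed between hairpin and pLVX cells was not tested. Over all vectors the R1881 samples ended at 11.23 and the vehicle samples began at 11.30. POLR1D was at 13.12, 13.23, 12.81 and 12.81 with R1881 and at 13.34, 13.51, 13.33 and 13.21 with vehicle, a difference of −0.35 (adjusted p = 0.0148) with slight overlap. The second POLR1D probe gave −0.31 (adjusted p = 0.0342), and the cells with GABPA constructs gave −0.25 (adjusted p = 0.161). The call was lost without any 1 of 5 samples: NT R1881 replicate 1, NT vehicle replicate 2, either EV R1881 replicate, or EV vehicle replicate 1. Of the members not called, NPM1 was highest in LNCaP at 0.34 (adjusted p = 0.0885), with a level below background. The medians over the members were −0.03 in LNCaP and −0.05 in c42b.

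Outside the members, the ornithine decarboxylase gene ODC1, a MYC target that makes polyamines, was higher with R1881 in LNCaP (0.55) and in c42b (0.60). In LNCaP, CDC25A (0.34) and the small-subunit factors MPHOSPH10 (0.36) and RCL1 (0.32) were higher too. All of these were named for the size of their called differences and do not describe their lists as a whole.

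The hairpin against GABPA, set beside overexpression in the study, asks what changes when the factor is reduced. MYC was lower in knockdown (KD) LNCaP cells, and it was the single member called there, where 1.2% of all genes were called lower and 1.27% higher. It was at 11.25, 11.14, 11.58 and 11.62 with shGA, R1881 samples first, against 11.68, 11.54, 12.03 and 11.89 with NT. The groups overlapped across arms and not within an arm. The difference was −0.38 (SE 0.08, adjusted p = 0.00585), at −0.42 in the R1881 arm and −0.35 in the vehicle arm, and the second probe gave −0.27 (adjusted p = 0.459). The call was lost without NT R1881 replicate 1 (adjusted p = 0.0504). In each arm the 2 NT samples were above all 6 other LNCaP samples, EV cells included, so that the KD difference and the vector difference of MYC rest on the same 4 NT samples.

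In c42b the member called with KD was NIP7, a large-subunit factor, where 1.53% of all genes were called lower and 1.72% higher. NIP7 was at 9.78, 9.81, 9.93 and 9.85 with shGA and at 10.18, 10.05, 10.20 and 10.38 with NT. The groups did not overlap, and the difference was −0.36 (SE 0.08, adjusted p = 0.0076). Here too the NT samples stood above all 12 other c42b samples, which reached 9.93 at most. The call was lost without NT R1881 replicate 1 or NT vehicle replicate 2. MYC differed by −0.11 (adjusted p = 0.794). The lowest uncalled member was DDX21 at −0.36 (adjusted p = 0.13).

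The members' medians with KD were −0.08 in LNCaP, with 32 of 41 below 0, and −0.10 in c42b, with 30 below 0, against a median of 0.00 over all genes. Uncalled members ran from −0.30 (RRP9) to 0.17 (NOC2L) in LNCaP. In limma, 0 members passed the test of whether KD differed between the lines, where 1.6% of all genes were called, or between the arms, where 0.0748% were called in LNCaP and 0.0249% in c42b. At an unadjusted p under 0.05 there were 3 members between the lines, and 4 in LNCaP and 2 in c42b between the arms, beside 12.7%, 6.3% and 4.04% of all genes at that threshold. Of the other ribosome factors, the snoRNP protein NHP2 was lower with KD in LNCaP (−0.39) and c42b (−0.43). NOL11 (0.37) was higher and NOP53 (−0.32) lower in LNCaP, and RPF1 (−0.56) and GAR1 (−0.37) were lower in c42b. TFRC was higher in both (0.66 and 0.35). In LNCaP, CDC25A was higher (0.41) and the serine hydroxymethyltransferase gene SHMT2 lower (−0.38), and in c42b MXD4 was higher (0.41). These genes outside the members were named for the size of their called differences and do not describe their lists as a whole. Of the 20 mitosis genes, 3 were higher with KD in LNCaP and 8 lower in c42b.

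**Figure D5:**
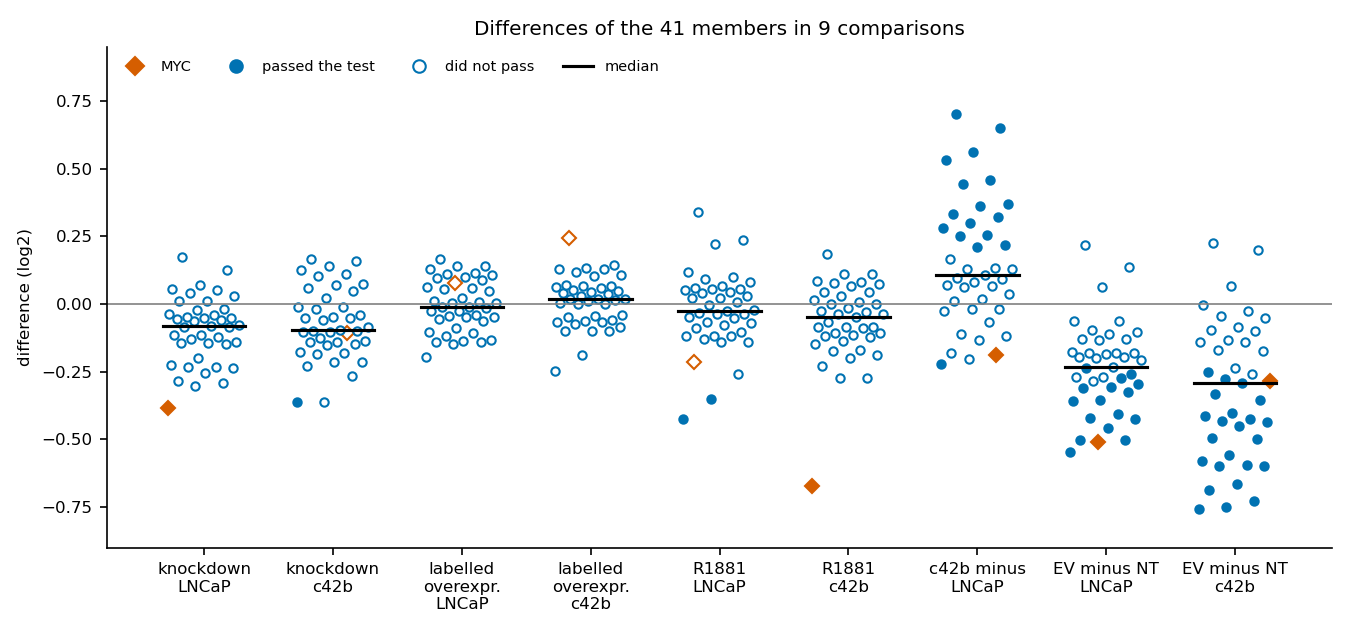
Differences (log2, y axis) of the 41 measured members in the 9 comparisons (x axis), where EV is empty pLVX and NT the non-targeting hairpin. Each symbol is 1 gene, diamonds are MYC, filled symbols passed adjusted p < 0.05 and bars are medians. The medians lie between −0.10 and 0.02 for knockdown, labelled overexpression and R1881, at 0.11 for the lines and at −0.23 and −0.29 for the vectors.

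With labelled overexpression, 0 of the 41 members were called in either line by limma, where 0.00998% (lower) and 0.0349% (higher) of all genes were called in LNCaP and 0.0399% and 0.11% in c42b. At an unadjusted p under 0.05 there was 1 member in LNCaP and 2 in c42b, beside 4.38% and 5.79% of all genes. MYC differed by 0.08 (adjusted p = 0.879) in LNCaP and by 0.25 (adjusted p = 0.194) in c42b, where it was the highest of the members, and POLR1B, below background, was the lowest at −0.25. The medians were −0.01 and 0.02. In limma, 0 members passed the tests of whether this difference departed between the lines, where 0.0549% of all genes were called, or between the arms, where 0.00499% were called in LNCaP and 0.0449% in c42b, and at an unadjusted p under 0.05 there were 2 between the lines and 1 in LNCaP and 2 in c42b between the arms, beside 5.35%, 4.38% and 5.3% of all genes. These values compare cells whose GABPA transcript was not measurably raised.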

How the data were processed

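Total RNA from LNCaP and c42b cells was hybridized to Illumina HT-12 BeadChips, 36 arrays of 32 samples. The authors deposited linear intensity values, bead summaries per probe that were not yet normalized between arrays, with 94 missing values and array medians of 178.3 to 225. They also deposited a table of quantile-normalized log2 values. Here log2 was taken of the intensities, all 36 arrays were quantile normalized together, and a repeat array was averaged with its sample. The result was checked against the deposited log2 table (median difference 0.000159, at most 0.152). The number of arrays limits the precision, with a median SE of 0.0969 for a comparison of 4 against 4 samples. A model with 1 mean for each of 16 groups was fitted with limma 3.58.1 in R 4.3.3. The p-values were adjusted by Benjamini-Hochberg over all probes, jointly over the 6 comparisons of GABPA construct and androgen, the 8 tests of differences between them, and the 2 vector comparisons, and alone for the lines. Knockdown and vector comparisons of a line share the NT samples, and labelled overexpression and vector comparisons the EV samples. Scripts were tested on simulated data. The members, the gene lists and the tests were chosen with earlier results of these data known. MYC and all called members are named, and uncalled members by the lowest and highest. Promoters were counted over RefSeq sequences (GRCh38.p14).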

Additional observations from a re-analysis of the deposited data

Results flagged for a closer look

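MYC, DKC1 and POLR1D differed between the lines by a test of the difference itself. For MYC, the R1881 difference in c42b minus that in LNCaP was −0.46 (SE 0.11, adjusted p = 0.0495, limma). It kept its sign and lost the call without any 1 of 14 of the 16 samples (adjusted p up to 0.164), and under 5 of 9 other settings. For DKC1, the EV-minus-NT difference in c42b minus that in LNCaP was −0.55 (adjusted p = 0.00507, limma), and the call held without each of the 16 samples. Its LNCaP difference was −0.07 with R1881 and 0.34 with vehicle. For POLR1D the same value was 0.49 (adjusted p = 0.0306, limma), and the call was lost without any 1 of 11 of the 16 samples (adjusted p up to 0.122). The second POLR1D probe gave EV-minus-NT differences of 0.055 in LNCaP and 0.182 in c42b, neither called.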

How the results depend on the processing

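The 17 and 24 members called lower with EV were 14 and 25 under median centring, and 16 and 23 with the replicate number as a block. In LNCaP they were 8 in the R1881 arm alone and 11 in the cells with GABPA constructs (labelled overexpression against hairpin, chosen after the data were seen). Over the 67 calls of members in the comparisons, 0 of 704 values changed sign with 1 sample left out and 117 lost the call. Of 773 values under other settings 85 lost it and 5 changed sign. With 1 sample left out the counts ran from 11 to 13 of 17 (LNCaP vectors), 19 to 21 of 24 (c42b vectors), 17 to 20 of 18 (lines), 0 to 1 for KD in either line, 0 to 0 for labelled overexpression, 1 to 3 (R1881 in LNCaP), 1 to 2 (R1881 in c42b), 0 to 1 for KD by arm in c42b, 0 to 1 for R1881 by line and 1 to 3 for the vectors by line.

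KD in LNCaP called 5 members with brighter probes only (MYC, POLR1D, UTP14A, IMP3 and NIP7), 3 with a trended and robust variance, 2 at an adjusted p under 0.1 and 0 in the R1881 or vehicle arm alone. KD in c42b called 2 with brighter probes or the trended variance (NIP7 and DDX21) and 0 in either arm alone. Labelled overexpression in c42b called 1, MYC (0.25, adjusted p = 0.0312 and 0.0336), under the same settings. R1881 called 1 in LNCaP under median centring and 0 in NT cells alone, and in c42b 2 with brighter probes and 3 in the cells with GABPA constructs. Among tests of differences, KD by arm called 1 in LNCaP (brighter probes) and 1 in c42b (brighter probes; trended variance). R1881 by line called 0 under normexp correction, median centring, adjustment within the comparison, without repeat arrays and with the replicate block, and 2 with brighter probes or the trended variance. The vectors by line called 1 under normexp or median centring, 5 with brighter probes or the trended variance, 6 with adjustment within the comparison, and 4 at an adjusted p under 0.1 or with any probe of a member. Brighter probes leave fewer genes to adjust over; other causes were not tested.

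In the R1881 arm alone, MYC with labelled overexpression in LNCaP was at −0.005 and NIP7 with EV in LNCaP at 0.010. In the cells with GABPA constructs, MYC was at 0.036 between the lines and 0.065 between vectors in c42b, and POLR1D and RRP9 were at 0.019 and 0.043 between vectors in LNCaP. Same-numbered samples did not pair (correlations of −0.0873 to 0.0942 over 120 pairs of groups). The block changed the counts of members to 17 for the lines and 0 for R1881 by line, beside those given above, and left the others as they were. Signal near background limits 6 of the 41 members.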
